A study of Mus musculus with 13 samples.

Results

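Gata2, Tal1, Lyl1, Lmo2, Runx1, Erg and Fli1 encode the transcription regulators known as the heptad of blood stem and progenitor cells. Gata2 is a zinc finger factor that binds GATA sequences, Tal1 and Lyl1 are related basic helix-loop-helix factors that bind E-boxes with a partner, and Lmo2 is an adaptor that binds no DNA itself and bridges Tal1 or Lyl1 to GATA factors. Runx1 binds RUNX sites through its Runt domain, and Erg and Fli1 are ETS factors. These proteins are known to bind many enhancers together, including enhancers of their own genes, and Gata2, Tal1 and Runx1 are required for the formation of haematopoietic stem cells (HSCs). Accessibility at the 7 genes was taken from every row of the region table whose midpoint lay in 1 of 7 windows around them, in mm9. The windows span 1000 kb in all and held 158 of 115295 regions, with 23 at Gata2, 15 at Tal1, 11 at Lyl1, 22 at Lmo2, 24 at Runx1, 28 at Erg and 35 at Fli1. The windows are set by position. A window also holds parts of neighbouring loci: Nfix follows Lyl1 in the RefSeq gene order, Stil and Pdzk1ip1 flank Tal1, and Ets1 follows Fli1. A region is therefore named by the window it lies in, which does not show that it acts on that gene.

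Open chromatin was measured in bulk by Omni-ATAC-seq, where a transposase inserts adapters into accessible DNA, in donor HSCs from C57BL/6 mice. According to the series description, recipients of 1 Vwf+ HSC each were scored over 16 weeks for the blood lineages they regained, and 500 cells entered each replicate. PLT-HSC came from P-restricted recipients (n = 3), PEM-HSC from PEM-restricted recipients (n = 6) and MUL-HSC from multilineage recipients (n = 4). Cells of all 3 groups were sorted as LSK, Flt3-, CD150+, CD48-, CD45.2+ and Gata1-, so they share a strain, a transplantation history and a gate, and none is an untransplanted control. The labels do not say that replicates of a group came from different recipients. The p-values then measure the spread between these samples only, which may be technical.

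Library totals were 2378024 to 3307889 counts in PLT-HSC, 1276962 to 3851165 in PEM-HSC and 1307222 to 2831520 in MUL-HSC. On the first principal component of log2 CPM over tested regions, PLT-HSC libraries scored 14.8 to 65.2, PEM-HSC -5.28 to 66.2, and MUL-HSC replicates 1 to 4 -104, -111, -11.9 and -55.1, so that MUL-HSC replicate 3 stood nearest to the restricted groups. Values are given in CPM, a region's counts relative to all the library's counts in tested regions, after TMM normalization, and the members together took 0.194% of all counts. Of the 158 members, 116 passed the filter on low counts and were tested (73.4%, against 51.5% of all regions). The other 42 held 22 to 104 counts over all 13 libraries. Runx1 had the most members left out, 12 of 24, followed by Fli1 with 10 and Erg with 9, whereas all 11 Lyl1 regions were tested.

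Start-site regions were set apart from distal ones. No mm9 annotation was used, so 11 approximate start positions known from general knowledge were taken, and the strongest region within 3 kb of each, averaged over all 13 libraries without regard to group, was called its start-site region. The approximate start lay inside its start-site region in 7 of 11 cases. At the Lmo2 distal start and at Fli1 it lay in a neighbouring, weaker region that is counted as distal (Lmo2 region 14 and Fli1 region 29). The 11 start-site regions had a median of 31.6 CPM, the 147 distal regions one of 6.37 CPM, and all tested regions one of 8.85 CPM. Distances below run from the midpoint of the most upstream start-site region of a gene, and positive values are downstream. Per kb of region, the Lyl1 start was the most accessible of the 11, at 134 ± 17.7 CPM per kb (SD over 13 libraries), and its range did not reach that of the next. The Gata2 distal (1S) start followed at 56.1 ± 15.4 CPM per kb. After it came Tal1 (41.3 ± 6.62), the Runx1 distal (P1) start (41.1 ± 6.41), the Erg internal start (39.8 ± 10.5), the Lmo2 proximal start (34.6 ± 4.99), the Gata2 proximal (1G) start (34.6 ± 5.98), the Fli1 start (28.3 ± 6.26) and the Runx1 proximal (P2) start (25.5 ± 1.86), all in CPM per kb. Each of these overlapped its neighbour in that order. The Erg upstream start at 12.4 ± 2.71 and the Lmo2 distal start at 9.18 ± 3.23 CPM per kb lay below the rest and overlapped each other. Gata2, Runx1, Erg and Lmo2 each had a pair of start-site regions. The order per kb depends on region width. The Gata2 1S start is 210 bp wide and held 11.8 CPM, below the 31.3 CPM of the Gata2 1G start, which is 905 bp wide.

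Promoter stretches from RefSeq (GRCm38.p6) were matched by symbol for 5 of the 7 genes, in 10 entries. They are in another build than the table, and that a stretch and a start-site region cover the same bases was not shown. Each sequence below holds the 250 bases before a RefSeq start, read in the direction of transcription. The Lyl1 stretch is printed because its region was the most accessible start, and the most upstream and most downstream of the Erg entries because the upstream and internal Erg starts differed in level. Capitals mark 4 short motifs on either strand: GATAA for GATA factors, CAGNTG for E-boxes, TGTGG for RUNX factors and CCGGAA for ETS factors. They occur in 22.6%, 44.8%, 49.3% and 12% of 32851 RefSeq promoters of the same length, in that order, and a match is a description of the letters, not a binding site. The Lyl1 stretch, chr8:84701207-84701456 on the plus strand, holds 1 E-box, 4 RUNX and 2 ETS motifs. The upstream Erg entry, chr16:95586594-95586843 on the minus strand, holds no match to any of the 4 motifs. The downstream Erg entry, chr16:95459349-95459598 on the minus strand, holds 1 E-box and 1 GATA motif. The first Runx1 entry, chr16:92826075-92826324 on the minus strand, is the more upstream of the 2 Runx1 entries, shown because Runx1 has start-site regions far apart, and it holds 2 E-boxes and 1 RUNX motif.
Lyl1: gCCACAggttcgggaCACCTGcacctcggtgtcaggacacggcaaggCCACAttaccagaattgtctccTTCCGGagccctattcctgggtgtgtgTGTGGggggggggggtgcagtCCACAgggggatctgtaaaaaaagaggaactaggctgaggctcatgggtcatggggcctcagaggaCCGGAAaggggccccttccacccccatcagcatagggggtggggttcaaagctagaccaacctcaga
Erg, upstream entry: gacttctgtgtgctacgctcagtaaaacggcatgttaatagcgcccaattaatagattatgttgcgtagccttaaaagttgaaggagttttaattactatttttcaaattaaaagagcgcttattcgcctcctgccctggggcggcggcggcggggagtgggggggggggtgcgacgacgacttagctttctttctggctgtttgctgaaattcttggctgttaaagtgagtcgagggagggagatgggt
Erg, downstream entry: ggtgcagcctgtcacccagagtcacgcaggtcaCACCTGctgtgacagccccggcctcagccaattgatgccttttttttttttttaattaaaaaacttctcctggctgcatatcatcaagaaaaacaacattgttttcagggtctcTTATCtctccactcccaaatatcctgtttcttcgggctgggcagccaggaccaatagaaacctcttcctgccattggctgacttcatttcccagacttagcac
Runx1, first entry: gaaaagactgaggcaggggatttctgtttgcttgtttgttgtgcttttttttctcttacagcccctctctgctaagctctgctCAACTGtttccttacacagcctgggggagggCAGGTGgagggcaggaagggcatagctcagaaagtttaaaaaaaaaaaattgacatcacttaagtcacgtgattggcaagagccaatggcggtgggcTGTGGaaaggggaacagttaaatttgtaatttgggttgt

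The comparison of the 3 groups asks whether HSCs from recipients with restricted blood output differ at these genes from HSCs of multilineage recipients. At the start-site regions they did not pass the threshold. Of 10 tested, 0 had an adjusted p under 0.05 in PLT-HSC against MUL-HSC, in PEM-HSC against MUL-HSC or in PLT-HSC against PEM-HSC (edgeR quasi-likelihood test, Benjamini-Hochberg over all 59408 tested regions). DESeq2 also called 0 in each. An unadjusted p under 0.05 was reached by 3, 2 and 1 of them with edgeR, beside 15.4%, 13.6% and 4.61% of all tested regions, and by 2, 2 and 1 with DESeq2, beside 11.9%, 10.4% and 2.86%. The median log2 fold changes were -0.13, 0.01 and -0.01. The 95% intervals of the 10 log2 fold changes reached at most from -1.0 to 1.03 in PLT-HSC against MUL-HSC and from -0.90 to 0.82 in PEM-HSC against MUL-HSC, so differences of up to that size remain possible at single starts.

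The 4 strongest starts by CPM differed little. The Lyl1 start, on chromosome 8 from 87225033 to 87225795, had 89.8, 105 and 93.0 CPM in PLT-HSC, 81.4 to 104 with a median of 101.2 in PEM-HSC, and 134, 92.6, 121 and 99.1 in MUL-HSC. The groups overlapped, and the log2 fold change was -0.22 ± 0.12 (SE) in PLT-HSC and -0.18 ± 0.10 in PEM-HSC, each against MUL-HSC. The Lmo2 proximal start held 60.1 ± 7.39 CPM in PLT-HSC, 57.5 ± 9.74 in PEM-HSC and 55.3 ± 8.15 in MUL-HSC (SD). The Tal1 start held 44.7 ± 3.87 CPM in PLT-HSC, 51.1 ± 6.27 in PEM-HSC and 46.7 ± 11.5 in MUL-HSC. The Runx1 P2 start varied least, with 47.6 ± 3.05, 46.8 ± 3.12 and 49.0 ± 4.68 CPM in PLT-HSC, PEM-HSC and MUL-HSC. Its 95% interval in PLT-HSC against MUL-HSC ran from -0.29 to 0.20 on the log2 scale. In all of these the groups overlapped.

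In 4 of 10 starts the PLT-HSC and MUL-HSC libraries did not overlap, 2 higher and 2 lower, where 13.2% of all tested regions did not overlap (6.67% higher, 6.56% lower). The Gata2 1G start, on chromosome 6 from 88148041 to 88148946, had 34.5, 33.2 and 33.3 CPM in PLT-HSC, 27.8 to 41.9 with a median of 33.8 in PEM-HSC, and 28.9, 21.5, 24.1 and 27.1 in MUL-HSC. Every PLT-HSC library was above every MUL-HSC library, and PEM-HSC overlapped with MUL-HSC. The log2 fold change was 0.39 ± 0.16 in PLT-HSC (adjusted p = 0.201, edgeR) and 0.40 ± 0.14 in PEM-HSC (adjusted p = 0.174), each against MUL-HSC. The Gata2 1S start, 4.6 kb upstream of it, ran the other way in both comparisons without passing, at -0.47 ± 0.26 and -0.44 ± 0.23, and its groups overlapped with 9.76, 9.81 and 11.5 CPM in PLT-HSC, 8.58 to 14.9 in PEM-HSC and 9.03 to 18.2 in MUL-HSC.

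At Erg the internal start, on chromosome 16 from 95680561 to 95681356, had 33.8, 48.6 and 33.0 CPM in PLT-HSC, 22.4 to 44.1 with a median of 32.5 in PEM-HSC, and 25.0, 24.8, 25.1 and 23.3 in MUL-HSC. All PLT-HSC libraries lay above all MUL-HSC libraries, with a log2 fold change of 0.63 ± 0.19 (adjusted p = 0.0764, edgeR; 0.0437 in a fit of those 2 groups alone), and PEM-HSC overlapped both at 0.47 ± 0.17 against MUL-HSC (adjusted p = 0.207). The Erg upstream start, from 95806719 to 95807859, had 9.76, 12.1 and 9.56 CPM in PLT-HSC, 10.6 to 18.9 in PEM-HSC and 13.5, 15.7, 16.6 and 13.3 in MUL-HSC. There every PLT-HSC library lay below every MUL-HSC library, with a log2 fold change of -0.50 ± 0.24 (adjusted p = 0.320), and PEM-HSC stood at 0.04 ± 0.20. The difference between the fold changes of the 2 Erg starts was not tested. The Runx1 P1 start had 33.2, 28.0 and 33.6 CPM in PLT-HSC, 33.3 to 52.4 in PEM-HSC, and 38.5, 40.5, 39.6 and 35.1 in MUL-HSC, a log2 fold change of -0.26 ± 0.15 in PLT-HSC against MUL-HSC (adjusted p = 0.426). The Lmo2 distal start, which was not tested, held 30 counts over the 3 PLT-HSC libraries, 47 over the 6 PEM-HSC libraries and 14 over the 4 MUL-HSC libraries. These counts are not scaled for library totals. In CPM per kb it held 11.1 ± 3.24 in PLT-HSC, 10.2 ± 2.76 in PEM-HSC and 6.17 ± 2.02 in MUL-HSC, and PLT-HSC overlapped with MUL-HSC.

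**Figure D1:**
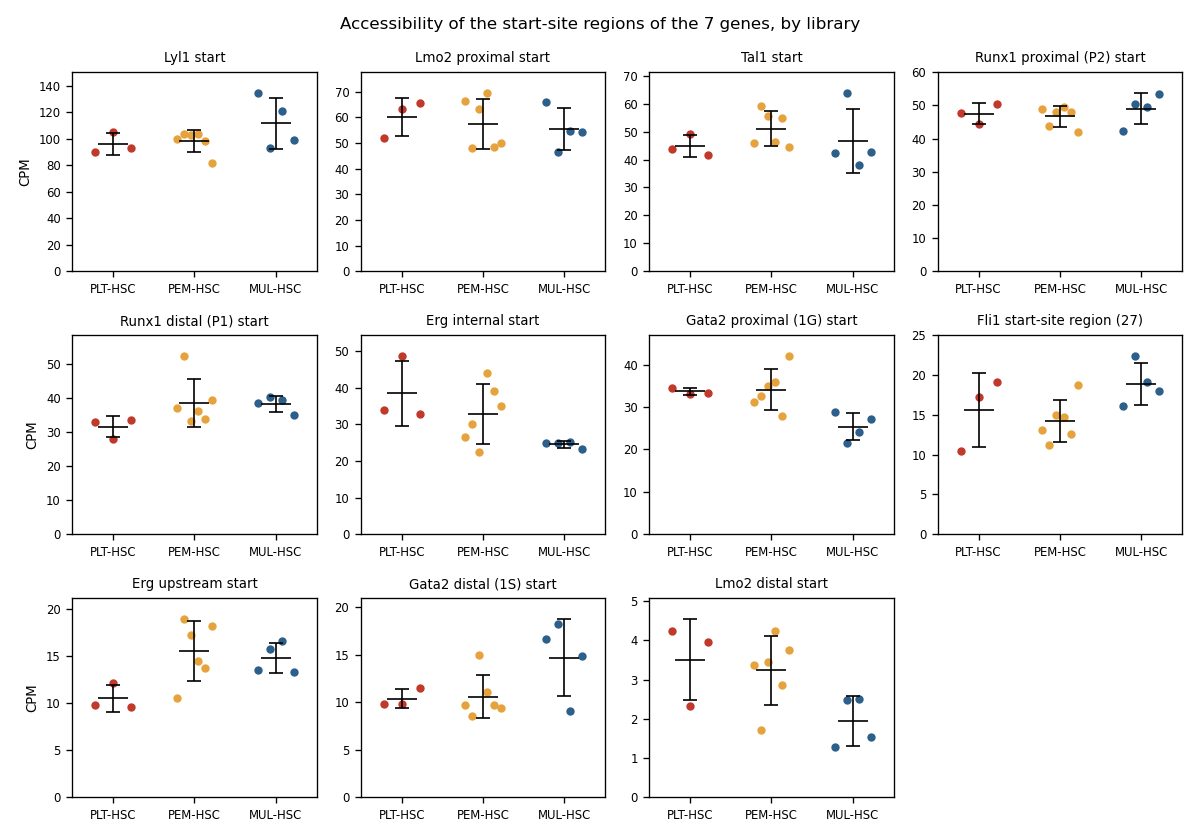
Accessibility (CPM, linear axis from 0) of the 11 start-site regions in each library; points are libraries, and black lines give the mean and SD of PLT-HSC (n = 3), PEM-HSC (n = 6) and MUL-HSC (n = 4). The Erg internal and Gata2 proximal starts sit higher in all 3 PLT-HSC libraries than in all 4 MUL-HSC libraries, and the Erg upstream and Runx1 distal starts lower; 0 of the 10 tested starts had an adjusted p under 0.05.

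Over all members, 3 of 116 tested regions passed the threshold in PLT-HSC against MUL-HSC, or 2.59%, where 2.41% of all tested regions did. All 3 were higher in PLT-HSC and distal, where 1.13% of all tested regions were called higher and 1.28% lower. A weak region can pass the low-count filter through 1 group alone, so the direction of a weak call is partly set by the filter. In PEM-HSC against MUL-HSC 1 of 116 passed, or 0.862%, beside 0.832% of all tested regions, and it was lower in PEM-HSC, where 0.242% of all tested regions were called higher and 0.589% lower. In PLT-HSC against PEM-HSC 0 passed with edgeR and 0 with DESeq2, beside 0.00168% of all tested regions, and 4 members had an unadjusted p under 0.05 with edgeR and 3 with DESeq2. DESeq2 called 0 of 116 members in PLT-HSC against MUL-HSC, beside 1.88% of all tested regions, and 1 in PEM-HSC against MUL-HSC, beside 0.784%. With DESeq2 an unadjusted p under 0.05 was reached by 18 and 15 members, beside 11.9% and 10.4% of all tested regions. In an edgeR fit of PLT-HSC and MUL-HSC alone 3 members passed, none of them the same: the Erg internal start and Gata2 region 19 were higher and Gata2 region 3 lower, while Lyl1 region 11 and Erg region 22 lost their call and Erg region 23 fell below the filter. The shares of members called in both comparisons with MUL-HSC are near those of all regions and are no result about the 7 genes as a group. The median log2 fold change of the members was 0.07 in PLT-HSC against MUL-HSC and 0.07 in PEM-HSC against MUL-HSC, beside 0.01 over all tested regions in both. Both comparisons share the MUL-HSC libraries. An unadjusted p under 0.05 was reached by 20 members (17.2%; 16 higher, 4 lower) in PLT-HSC against MUL-HSC, beside 15.4% of all tested regions, and by 17 (14.7%; 13 higher, 4 lower) in PEM-HSC against MUL-HSC, beside 13.6%. The groups did not overlap at 20 members in PLT-HSC against MUL-HSC (17.2%; 14 higher, 6 lower), beside 13.2% of all tested regions (6.67% higher, 6.56% lower). They did not overlap at 5 in PEM-HSC against MUL-HSC (4 higher, 1 lower), beside 3.59% of all tested regions (1.51% higher, 2.08% lower), and at 2 in PLT-HSC against PEM-HSC (1 higher, 1 lower), beside 2.29% (1.32% higher, 0.968% lower). A log2 fold change of at least 1 in size was found at 10, 8 and 1 members, beside 7.88%, 4.57% and 1.65% of all tested regions. In PLT-HSC against PEM-HSC, 4.61% of all tested regions had an unadjusted p under 0.05, beside the 4 of 116 members (3.45%), and 62 of 116 members were above 0, beside 50% of all tested regions.

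By window, those with an unadjusted p under 0.05 in PLT-HSC against MUL-HSC were 7 of 19 at Erg, 6 of 20 at Gata2, 4 of 25 at Fli1, 1 of 11 at Tal1, 1 of 11 at Lyl1, 1 of 12 at Runx1 and 0 of 18 at Lmo2. Over all tested regions the share was 15.4%. Regions of a window share the same libraries, and differences between windows were not tested. At Runx1 the fold changes leaned down, with 2 of 12 above 0 in PLT-HSC and 2 of 12 above 0 in PEM-HSC against MUL-HSC, where 51.4% and 51.9% of all tested regions were above 0. At Tal1 8 of 11 were above 0 in PLT-HSC and 9 of 11 in PEM-HSC, and at Gata2 15 of 20 and 14 of 20. At Erg 9 of 19 were above 0 in PLT-HSC and 12 of 19 in PEM-HSC.

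**Figure D2:**
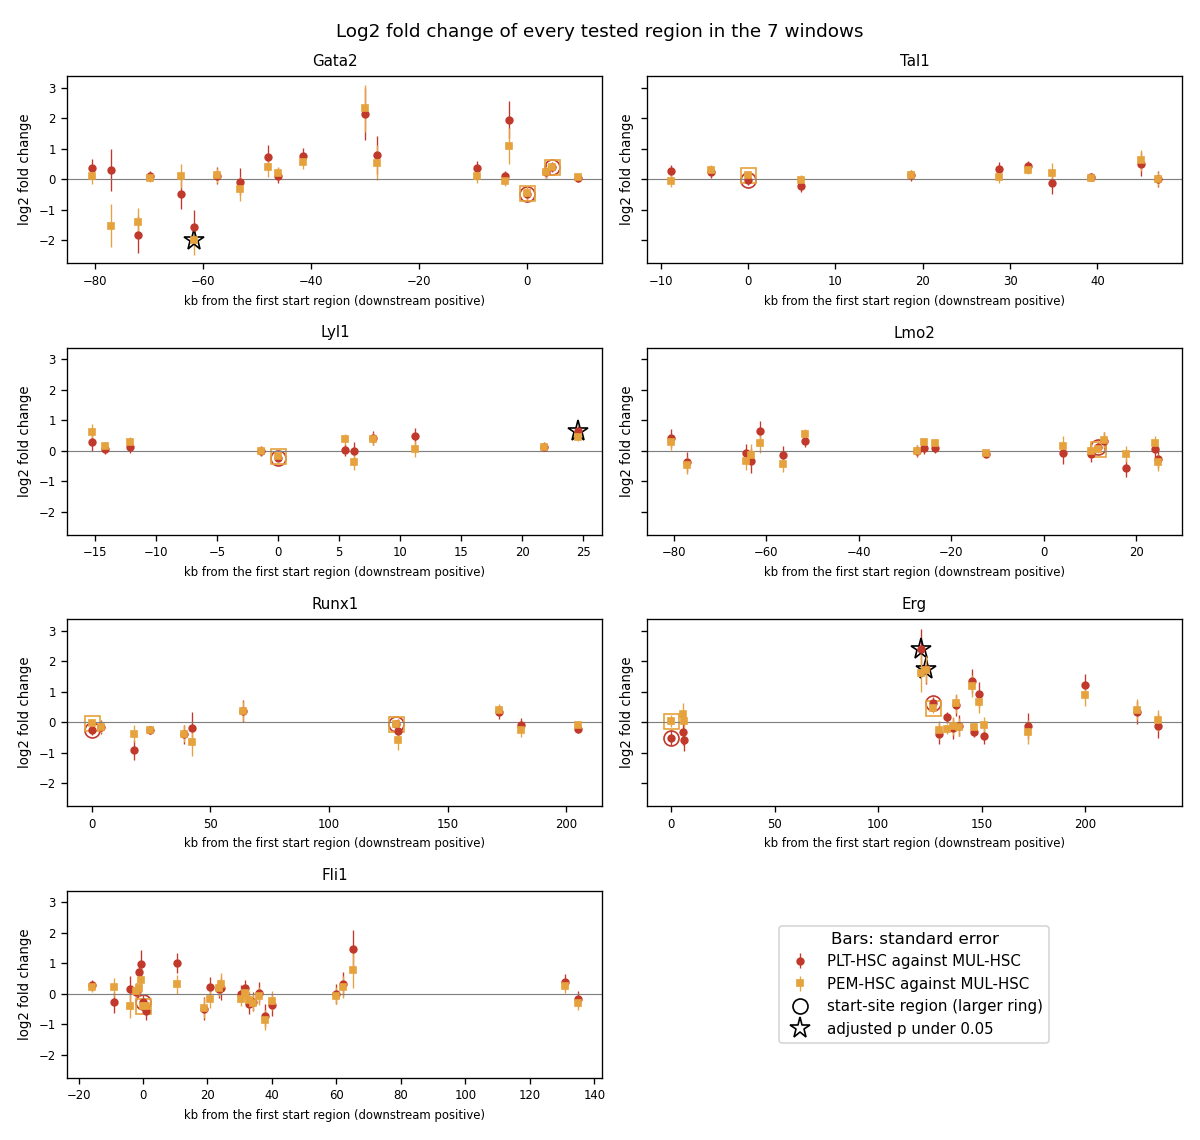
Log2 fold change against MUL-HSC (y axis, bars give the standard error) of every tested region in the 7 windows, by distance in kb from the most upstream start-site region (x axis), for PLT-HSC (red circles) and PEM-HSC (orange squares). Larger rings mark start-site regions and stars an adjusted p under 0.05; the stars fall on Erg regions 22 and 23 and Lyl1 region 11 in PLT-HSC and on Gata2 region 6 in PEM-HSC.

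Of the members past the threshold, 2 lay next to each other, 3.1 and 5.4 kb upstream of the Erg internal start, and Erg is an ETS factor needed for HSC maintenance in mice. Erg region 22, on chromosome 16 from 95683971 to 95684205, had 7.16, 4.67 and 4.95 CPM in PLT-HSC, 4.53 to 9.44 with a median of 5.08 in PEM-HSC, and 2.57, 0.827, 3.01 and 0.381 in MUL-HSC. Its PLT-HSC and PEM-HSC libraries all lay above all MUL-HSC libraries, which held 12 counts in total. It was higher in PLT-HSC with a log2 fold change of 1.74 ± 0.48 (adjusted p = 0.0482, edgeR) and stood at 1.72 ± 0.45 in PEM-HSC against MUL-HSC (adjusted p = 0.0574). Erg region 23, from 95686266 to 95686570, had 7.48, 4.67 and 3.30 CPM in PLT-HSC, 1.15 to 4.87 with a median of 2.85 in PEM-HSC, and 0.642, 0, 1.003 and 1.53 in MUL-HSC. PLT-HSC did not overlap with MUL-HSC, which held 7 counts in total, and PEM-HSC did. The log2 fold change was 2.42 ± 0.65 in PLT-HSC (adjusted p = 0.0407) and 1.62 ± 0.63 in PEM-HSC (adjusted p = 0.235). Both are weak regions, at 4.50 and 2.75 CPM over all libraries. No MUL-HSC library exceeded 3.01 CPM at region 22 or 1.53 CPM at region 23. Both thus passed the filter through the restricted groups, where they are high, and their shared direction is no separate support. The summed distal signal of the Erg window was 187 ± 11.6 CPM in PLT-HSC, 184 ± 14.99 in PEM-HSC and 174 ± 15.6 in MUL-HSC, with overlapping groups. Leaving out any 1 PLT-HSC library, MUL-HSC replicate 1, 2 or 4, or PEM-HSC replicate 1, 4, 5 or 6 ended the call of region 22, with an adjusted p of 0.0508 to 0.234. Leaving out MUL-HSC replicate 1 or 2 or PLT-HSC replicate 2 ended that of region 23, with an adjusted p of 0.0799 to 0.102, and 5 other omissions put it below the filter.

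Of the 19 tested Erg regions, 9 were above 0 and 10 below in PLT-HSC against MUL-HSC. Erg regions 15 and 4, named after their values were seen, lie 18.9 and 73.7 kb downstream of the internal start. Region 15 had 11.1, 6.54 and 7.91 CPM in PLT-HSC, 4.53 to 13.1 in PEM-HSC and 3.21, 1.65, 4.51 and 3.43 in MUL-HSC. Both restricted groups lay above MUL-HSC without overlap, with log2 fold changes of 1.35 ± 0.39 (adjusted p = 0.0579) and 1.18 ± 0.36 (adjusted p = 0.109). Region 4 stood at 1.21 ± 0.39 in PLT-HSC (adjusted p = 0.0919). The strongest distal Erg region, region 14, ran the other way at -0.30 ± 0.16 in PLT-HSC and -0.15 ± 0.14 in PEM-HSC, with 32.2, 29.9 and 39.2 CPM in PLT-HSC, 31.5 to 48.8 in PEM-HSC and 34.7 to 50.4 in MUL-HSC, and its groups overlapped.

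Lyl1 region 11, on chromosome 8 from 87249758 to 87250230, lies 24.6 kb downstream of the Lyl1 start, with its midpoint 6 bp inside the edge of the window, on the side of Nfix, which encodes a nuclear factor I protein. It had 28.0, 25.7 and 27.4 CPM in PLT-HSC, 20.7 to 26.9 with a median of 23.8 in PEM-HSC, and 19.3, 15.7, 17.6 and 16.8 in MUL-HSC. Neither restricted group overlapped with MUL-HSC. It was higher in PLT-HSC by 0.64 ± 0.17 on the log2 scale (adjusted p = 0.0386, edgeR), and stood at 0.46 ± 0.15 in PEM-HSC against MUL-HSC (adjusted p = 0.146). Leaving out any 1 of the PLT-HSC or MUL-HSC libraries ended this call, with an adjusted p of 0.0541 to 0.158. The region nearest the Lyl1 start, region 4 at 1.4 kb upstream, had 52.4 ± 9.89 CPM in PLT-HSC, 51.0 ± 9.97 in PEM-HSC and 52.0 ± 3.84 in MUL-HSC, a log2 fold change of -0.01 ± 0.16 in PLT-HSC against MUL-HSC.

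Gata2 region 6, on chromosome 6 from 88082168 to 88082474 and 61.6 kb upstream of the 1S start, was the 1 member called in PEM-HSC against MUL-HSC. It had 1.95, 1.87 and 2.97 CPM in PLT-HSC, 0 to 3.38 with a median of 1.57 in PEM-HSC, and 9.63, 5.79, 3.51 and 8.39 in MUL-HSC. All libraries of both restricted groups lay below all MUL-HSC libraries. It was lower in PEM-HSC by a log2 fold change of -1.99 ± 0.48 (adjusted p = 0.0425, edgeR), and stood at -1.56 ± 0.55 in PLT-HSC against MUL-HSC (adjusted p = 0.131). Leaving out PEM-HSC replicate 2, 3, 4, 5 or 6 ended the call, with an adjusted p of 0.0505 to 0.0821, and leaving out MUL-HSC replicate 1, 2 or 4 put the region below the filter. Gata2 region 6 thus passed the filter through MUL-HSC, the group where it is high, and its direction is no separate support. Gata2 region 3, named after its values were seen, lies 72.0 kb upstream and had 2.28, 1.40 and 1.65 CPM in PLT-HSC, 0 to 4.53 in PEM-HSC and 8.98, 6.61, 4.51 and 6.10 in MUL-HSC. PLT-HSC did not overlap with MUL-HSC there, at -1.81 ± 0.60 (adjusted p = 0.101).

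**Figure D3:**
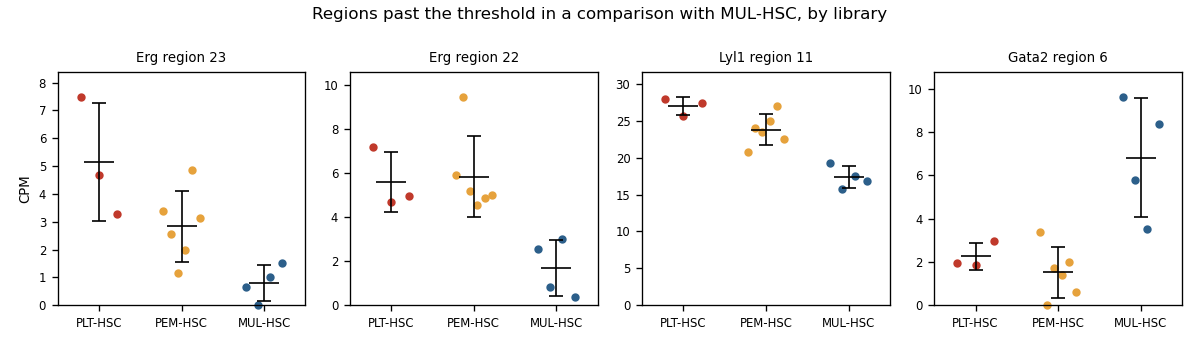
Accessibility (CPM, linear axis from 0) in each library of the 4 regions with an adjusted p under 0.05 in a comparison with MUL-HSC; points are libraries, and black lines give the mean and SD of PLT-HSC (n = 3), PEM-HSC (n = 6) and MUL-HSC (n = 4). Erg regions 23 and 22 and Lyl1 region 11 are higher in every PLT-HSC library than in any MUL-HSC library, and Gata2 region 6 is lower in every PEM-HSC library.

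Regions at the distances of long-known enhancers were then read. The Tal1 region 39.3 kb downstream, near the +40 kb erythroid enhancer, was the member with the most counts. It had 93.1, 131 and 118 CPM in PLT-HSC, 102 to 132 with a median of 104 in PEM-HSC, and 110, 102, 109 and 104 in MUL-HSC. The groups overlapped and the log2 fold change in PLT-HSC against MUL-HSC was 0.09 ± 0.12, with a 95% interval from -0.15 to 0.33. The Tal1 region 18.7 kb downstream, near the +19 kb stem cell enhancer, had 22.6 ± 1.88 CPM in PLT-HSC, 22.8 ± 3.23 in PEM-HSC and 20.7 ± 3.04 in MUL-HSC, and its interval ran from -0.25 to 0.50. The Gata2 region 9.4 kb downstream, near the +9.5 kb enhancer that is required for HSC formation in mice, had 47.5, 50.5 and 40.6 CPM in PLT-HSC, 41.3 to 54.1 in PEM-HSC, and 49.4, 39.7, 47.6 and 41.9 in MUL-HSC. Its log2 fold change was 0.04 ± 0.13 in PLT-HSC and 0.07 ± 0.11 in PEM-HSC, with 95% intervals from -0.23 to 0.31 and from -0.16 to 0.31. At Runx1 no region had its midpoint within 1.5 kb of the +23 kb position. The nearest, with its midpoint at 24.6 kb, was the strongest distal region of the window. This region is 1470 bp wide, so its near edge lay closer to that position than its midpoint. It had 56.8 ± 3.50 CPM in PLT-HSC, 56.0 ± 8.41 in PEM-HSC and 67.6 ± 9.26 in MUL-HSC, at -0.26 ± 0.13 and -0.25 ± 0.11 against MUL-HSC (adjusted p = 0.359 and 0.335). At Fli1 a weak region at 15.2 kb upstream, not tested, lay beside the strongest distal region of the window at 15.9 kb upstream. These distances run from the start-site region, whereas the approximate start lies in a region whose midpoint is 1.2 kb further upstream. From that midpoint the strongest region lies closer to the -15 kb position than the weak one. Which of them matches that enhancer was not tested. That strongest region held 37.6 ± 4.69 CPM in PLT-HSC, 34.9 ± 6.01 in PEM-HSC and 30.7 ± 6.86 in MUL-HSC, with overlapping groups. Counted from the start-site region, no Fli1 region had its midpoint within 1.5 kb of the +12 kb position. Counted from the region that holds the approximate start, the nearest one lies closer to that position. A region at that enhancer is therefore not shown to be absent. The nearest, at 10.4 kb, had 9.44, 8.41 and 14.2 CPM in PLT-HSC, 4.29 to 9.90 in PEM-HSC and 4.51 to 7.06 in MUL-HSC, with no overlap between PLT-HSC and MUL-HSC and a log2 fold change of 1.0 ± 0.33 (adjusted p = 0.0966).

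The Gata2 region 77.0 kb upstream, at the distance of the -77 kb enhancer used in myeloid progenitors, varied widely within groups. It had 44.6, 5.14 and 9.23 CPM in PLT-HSC, 2.58 to 9.05 with a median of 5.42 in PEM-HSC, and 30.8, 14.1, 7.02 and 14.9 in MUL-HSC. PLT-HSC replicate 1 and MUL-HSC replicate 1 stood far above the rest of their groups, and the highest library was 17.3 times the lowest. The log2 fold change of PLT-HSC against MUL-HSC was 0.31 ± 0.69, and without PLT-HSC replicate 1 it was -1.15 ± 0.51. That of PLT-HSC against PEM-HSC was 1.84 ± 0.69, and 0.38 ± 0.52 without that library. The within-group SD of its log2 CPM was 0.92, larger than that of 97.4% of all tested regions. Among the 7 tested members with the widest within-group spread, 6 lay in the Gata2 window, each wider than at least 89.5% of tested regions. Gata2 regions 2 and 15 had 12.4 and 17.6 CPM on average, above the median of 8.85 CPM over all tested regions. Gata2 regions 3, 6, 13 and 19 were weak, at 3.48, 3.33, 2.89 and 5.28 CPM, below that median. The part of low counts in their spread was not tested. Gata2 region 15, 27.8 kb upstream and named after its values were seen, had 24.1, 22.9 and 17.1 CPM in PLT-HSC. In PEM-HSC it had 24.9, 22.3, 24.7, 4.24, 16.0 and 20.7 CPM, and in MUL-HSC 27.6, 12.4, 3.01 and 8.77. PEM-HSC replicate 4 and MUL-HSC replicate 3 were the lowest of their groups there, and they were also the lowest of their groups at region 13, 30.0 kb upstream and also named after its values were seen, with 0.849 and 0 CPM. The other PEM-HSC libraries had 2.53 to 7.51 CPM at region 13, and the other MUL-HSC libraries 0.381 to 1.93. Gata2 region 19, 3.4 kb upstream of the 1S start, had 7.48, 13.1 and 7.91 CPM in PLT-HSC, 1.41 to 9.75 in PEM-HSC, and 0.642, 0, 4.51 and 3.05 in MUL-HSC. PLT-HSC did not overlap with MUL-HSC at region 19, at a log2 fold change of 1.95 ± 0.61 (adjusted p = 0.100, edgeR). By contrast the Runx1 P2 start had a within-group SD of 0.11, smaller than all but 0.874% of tested regions. The median was 0.22 over start-site regions, 0.33 over distal members and 0.37 over all tested regions. Start-site regions also had higher CPM, and the spreads were not compared at equal levels.

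**Figure D4:**
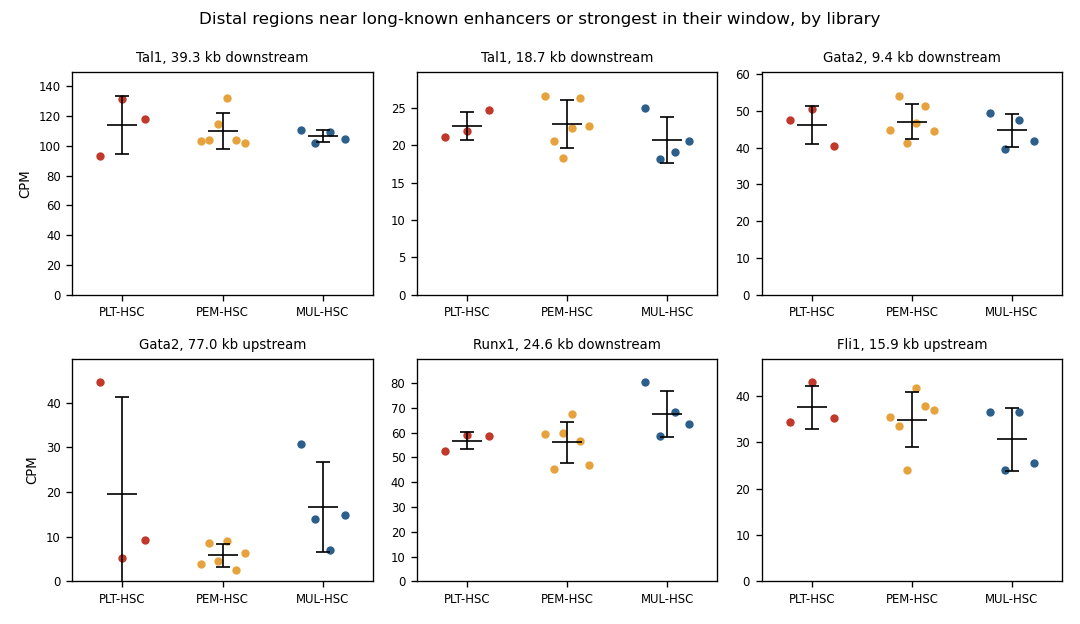
Accessibility (CPM, linear axis from 0) in each library of 6 distal regions at or near the distances of long-known enhancers or strongest in their window; points are libraries, and black lines give the mean and SD of PLT-HSC (n = 3), PEM-HSC (n = 6) and MUL-HSC (n = 4), with bars cut at 0. The groups overlap in all 6, and at the Gata2 region 77.0 kb upstream PLT-HSC replicate 1 (44.6 CPM) and MUL-HSC replicate 1 (30.8 CPM) stand apart from their groups.

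At Fli1 the start-site region (region 27), the strongest within 3 kb, and region 29, which holds the approximate start, had fold changes of opposite sign. Region 27 had 10.4, 17.3 and 19.1 CPM in PLT-HSC, 11.2 to 18.8 in PEM-HSC and 16.0 to 22.3 in MUL-HSC, a log2 fold change of -0.27 ± 0.23 in PLT-HSC and -0.40 ± 0.20 in PEM-HSC. Fli1 region 29, its midpoint 1.2 kb upstream of that of region 27 and named after its values were seen, had 10.7, 20.1 and 17.1 CPM in PLT-HSC, 4.59 to 15.5 in PEM-HSC and 4.13 to 11 in MUL-HSC, at 0.72 ± 0.31 in PLT-HSC (adjusted p = 0.241). Neither passed, and the sign at the Fli1 start depends on which is taken. With a margin of 1 kb in place of 3 kb the log2 ratio of the start-site signal turned to 0.80 in PLT-HSC and 0.28 in PEM-HSC, each against MUL-HSC. Fli1 region 14, 37.7 kb downstream, had 4.23, 7.47 and 4.29 CPM in PLT-HSC, 0.858 to 8.14 in PEM-HSC and 6.61 to 10.3 in MUL-HSC, at -0.86 ± 0.32 in PEM-HSC (adjusted p = 0.210). In the Lmo2 window the strongest distal region, 12.6 kb upstream, had 52.0 ± 8.07 CPM in PLT-HSC, 52.6 ± 5.26 in PEM-HSC and 55.0 ± 3.93 in MUL-HSC. The Lmo2 region of smallest p in PEM-HSC against MUL-HSC, 51.6 kb upstream, had 28.6, 28.5 and 22.4 CPM in PLT-HSC, 23.5 to 34.4 in PEM-HSC and 15.6 to 26.6 in MUL-HSC, at 0.54 ± 0.16 in PEM-HSC (adjusted p = 0.103). Lmo2 region 20 stood at -0.57 ± 0.30 in PLT-HSC against MUL-HSC (adjusted p = 0.378), with 5.21, 6.54 and 8.57 CPM in PLT-HSC, 6.01 to 13.2 in PEM-HSC and 9.10 to 10.7 in MUL-HSC. In PLT-HSC against PEM-HSC the smallest p of the Lyl1 window fell on region 6 (-0.35 ± 0.18) and that of the Tal1 window on region 3 (0.32 ± 0.18), and neither passed. At Tal1, region 11, 32.0 kb downstream, had 39.7, 45.3 and 38.9 CPM in PLT-HSC, 31.7 to 40.7 in PEM-HSC and 22.3 to 33.1 in MUL-HSC. PLT-HSC did not overlap with MUL-HSC, at 0.45 ± 0.15 (adjusted p = 0.0948), and PEM-HSC did, at 0.31 ± 0.13. At Runx1, region 21, 18 kb downstream of the P1 start, had 7.48, 2.80 and 6.60 CPM in PLT-HSC, 3.43 to 11 in PEM-HSC and 8.34 to 15.7 in MUL-HSC, at -0.90 ± 0.34 in PLT-HSC (adjusted p = 0.161).

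Summed over the 147 distal regions of the 7 windows, accessibility was 1766 ± 28.5 CPM in PLT-HSC, 1718 ± 41.0 in PEM-HSC and 1664 ± 39.8 in MUL-HSC. PLT-HSC ran from 1737 to 1794 CPM and lay above MUL-HSC, which ran from 1631 to 1721, a log2 ratio of 0.09. This sum was not tested. Summed over the 11 start-site regions it was 392.1 ± 22.2 CPM in PLT-HSC, 403 ± 16.9 in PEM-HSC and 401 ± 17.6 in MUL-HSC. The mean distal sums of single windows did not all run the same way, and none was tested. That of Runx1 was 242 ± 19.96 CPM in PLT-HSC, 244 ± 21.02 in PEM-HSC and 276 ± 20.01 in MUL-HSC. That of Lyl1 was 245 ± 10.6, 247 ± 10.6 and 218 ± 14.0 CPM in the same groups. In both windows each restricted group overlapped with MUL-HSC. Apart from the Fli1 distal sum, groups failed to overlap only in the Tal1 distal sum and the Erg start-site sum. The Tal1 sum ran from 278 to 296 CPM in PEM-HSC and from 240 to 274 in MUL-HSC. The Erg sum ran from 42.5 to 60.7 CPM in PLT-HSC and from 36.6 to 41.6 in MUL-HSC. The Fli1 distal sum was 252 ± 2.66 CPM in PLT-HSC, 232 ± 14.7 in PEM-HSC and 229 ± 7.11 in MUL-HSC, with PLT-HSC above both other groups without overlap. Mean library totals also ran in that order, at 2995456 counts in PLT-HSC, 2536748 in PEM-HSC and 2013841 in MUL-HSC, and their part in the summed values was not tested. The regions whose log2 CPM followed the mean of the 106 tested distal members most closely over the 13 libraries lay on chromosome 11 from 120318700 to 120319894 (Spearman's rho 0.951), chromosome 4 from 15226626 to 15227526 (0.940) and chromosome 19 from 32453782 to 32454422 (0.929). They are the highest of 57491 ranked regions, which share libraries and depth, and the values are a description.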

How the data were processed

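The authors deposited 1 table of raw counts, whole numbers per accessible region, for 13 libraries. The tools named in the submitters' processing notes are Bowtie2, Picard, SAMtools, MACS2, FastQC and Trim Galore, with mm9 as the build. Not given in the sources used here are how they were set, what counted the reads, whether duplicates were removed or insertions shifted, and the base that region starts count from.

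Counts were tested in R 4.3.3 with edgeR 4.0.16: filterByExpr by group (59408 regions kept, with 91.4% of counts), TMM, 1 robust quasi-likelihood fit of all 13 libraries, two-sided contrasts, and Benjamini-Hochberg adjustment over all tested regions at 0.05. Each standard error is the absolute log2 fold change over the square root of its F. The test was checked on simulated counts, in PLT-HSC against MUL-HSC, PEM-HSC against MUL-HSC and PLT-HSC against PEM-HSC. Of 2-fold changes it recovered 30%, 53% and 32%, and of 4-fold changes 68%, 83% and 84%. Calls on unchanged regions numbered 12, 7 and 14. As a share of all simulated calls, these were above 0.05 in both comparisons with PLT-HSC and just under it in PEM-HSC against MUL-HSC. A region without a call may therefore still differ by 2-fold. Within-group pairs of libraries differed by more than sampling noise (chi-square per degree of freedom 1.44 to 2.23, 24 pairs). No pair was therefore taken as a split of the same library, and each library was counted as 1 sample. That does not show that they came from different recipients. Text names, in each window, the start-site regions, the strongest distal region, regions past the threshold, the region of smallest p in each comparison and those at known enhancer distances; others are said to be named after their values were seen. Members and lists were chosen with earlier results of these data known. Alternatives were DESeq2 1.42.0, other scaling, filters and samples, a replicate block, sva 3.50.0, a fit without robust estimation and leaving out libraries.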

Additional observations from a re-analysis of the deposited data

Results flagged for a closer look

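Among 96 groups of PEM-HSC or MUL-HSC libraries checked for 1 library far from the others, 8 had such a library, where chance gives about 1 in 20. PLT-HSC (n = 3) was not checked in this way. The high value of PLT-HSC replicate 1 at Gata2 region 2, given above, is therefore outside this count. At the Erg internal start (Erg region 21), MUL-HSC replicate 4 had 23.3 CPM beside 24.8 to 25.1 in the others, a small distance in a tight group. At Erg region 22, PEM-HSC replicate 2 had 9.44 CPM beside 4.53 to 5.91. At the Lyl1 start (Lyl1 region 5), which alone makes up the start-site sum of its window, PEM-HSC replicate 6 had 81.4 CPM beside 98.5 to 104, and this gives 2 of the 8. At the Runx1 distal start (Runx1 region 24), PEM-HSC replicate 2 had 52.4 CPM beside 33.3 to 39.4, and in the start-site sum of the Runx1 window the same library had 96.1 CPM beside 81.4 to 86.1. In the distal sum of the Gata2 window, PEM-HSC replicate 4 had 203 CPM beside 238 to 257, and MUL-HSC replicate 1 had 270 CPM beside 214 to 220. Their causes were not tested.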

How the results depend on the processing

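The count of members past the threshold in PLT-HSC against MUL-HSC (3, all higher) was 1 with a mean of at least 20 counts and 1 with 1 surrogate variable, and 0 with DESeq2 or without libraries under 2000000 counts. With only the compared groups in the model it was again 3, but 2 higher and 1 lower, and with 0 of the original calls. In PEM-HSC against MUL-HSC the count (1, lower) was 0 with a mean of at least 20 counts, without robust estimation, with the compared groups alone, or without libraries under 2000000 counts. Leaving out each library gave 0 to 4 members, all higher, in PLT-HSC, and 0 to 3 in PEM-HSC, of which 0 to 2 higher and 0 to 1 lower. With the replicate number as a block, 0 members passed in either, and over the whole table the calls were 682, 108 and 9 in PLT-HSC against MUL-HSC, PEM-HSC against MUL-HSC and PLT-HSC against PEM-HSC, in place of 1431, 494 and 1. Over the whole table the calls in those comparisons were 853, 336 and 1 with 1 surrogate variable, 577, 230 and 0 with a mean of at least 20 counts, and 275, 13 and 4 without libraries under 2000000 counts. Leaving out 1 library gave 350 to 2116, 61 to 1215 and 0 to 11. The 10 pairs of same-numbered libraries had correlated deviations of -0.136 to 0.0992, so the numbers were not taken to pair the samples. The cause of each change was not tested.

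Among 2059 alternative values of 96 region results, 41 lost a call and 7 gained one, and 0 called regions changed sign. Only the 4 called regions could lose a call. Where it was still tested, Lyl1 region 11 lost its call in 12 of 22 alternatives and Erg region 22 in 15 of 21. Erg region 23 lost it in 7 of 15 and Gata2 region 6 in 7 of 16. Regions called in neither fit changed sign in 104. A 1 kb margin for start sites moved 3 Fli1 sums, to log2 ratios of 0.80 (start sites) and 0.074 (distal) in PLT-HSC against MUL-HSC and 0.28 (start sites) in PEM-HSC against MUL-HSC, from -0.27, 0.14 and -0.41. With a mean of at least 20 counts, 1 of the 4 called regions, Lyl1 region 11, was still tested.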
